A study of Homo sapiens with 6 samples.

Results

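A set of 10 genes of the G1 phase of the cell cycle were followed in NCI-H660 cells after 3 days with pyrvinium pamoate (PP) or phosphate-buffered saline (PBS). They were chosen by symbol from a table of 17177 genes: the D-type cyclins *CCND1*, *CCND2* and *CCND3*, the E-type cyclin *CCNE1*, the CDK inhibitors *CDKN1A*, *CDKN1B*, *CDKN2A* and *CDKN2C*, the RB protein gene *RB1* and the transcription factor gene *E2F1*. All 10 were in the table, and 8 of them had a mean of at least 1 FPKM (fragments per kilobase of exon, scaled to the mapped fragments of the library) and were tested. NCI-H660 is an established cell line of neuroendocrine prostate cancer (NEPC), labelled as wild type in both groups, and PP is an anthelmintic compound that the study used against the RNA-binding protein ELAVL3. Each group held 3 libraries of polyadenylated RNA and the only labelled difference between the groups was PP or PBS. The concentration of PP in this experiment was not given in the sources used here. One cell line at a single time point limits the comparison to these cells.

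In G1, the D-type cyclins bind CDK4 and CDK6, and the E-type cyclins bind CDK2. These kinases phosphorylate the RB protein, which then releases E2F factors that switch on the genes of S phase. The INK4 inhibitors (encoded by *CDKN2A*, *CDKN2B*, *CDKN2C* and *CDKN2D*) bind CDK4 and CDK6, whereas the CIP/KIP inhibitors (*CDKN1A*, *CDKN1B* and *CDKN1C*) bind cyclin-CDK complexes, including those of CDK2. Loss of *RB1* is frequent in NEPC, and *CDKN2C* and *CCNE1* are both known as E2F target genes.

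Of the 8 tested members, 5 fell under PP and none rose: *CDKN2C* and *CCNE1* fell to 39.1% of their PBS level each, *CCND3* to 74.3%, *CDKN1A* to 87.8% and *CDKN2A* to 93.0%. *CDKN1B*, *RB1* and *E2F1* did not pass the test, which was limma on log2(FPKM + 1) with Benjamini-Hochberg adjustment over the 11726 genes with a mean of at least 1 FPKM, at an adjusted p under 0.05. Changes were common in this comparison, with 34.4% of all tested genes lower, 38.1% higher and 72.5% changed either way. The count of 0 members higher was also 0 at an unadjusted p under 0.05 and 0 with limma-voom on recovered counts. By the cutoff of the study's bulk transcriptome methods, *CDKN2C* and *CCNE1* were lower and no member was higher, against 2.93% of all genes lower and 2.24% higher. That cutoff is a P under 0.001, taken here as unadjusted, with a log2 fold change below -1 or above 1. The study's RNA-sequencing methods give a P threshold of 0.05 instead. In the same 5 genes the PP libraries lay wholly below the PBS libraries, while the libraries of the other 3 overlapped, and 75% of all tested genes had groups that did not overlap. The median log2 fold change was -0.15 over the 8 tested members and 0.022 over all tested genes. In bulk RNA, fewer cells in a given phase and less RNA per cell cannot be told apart.

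**Figure D1:**
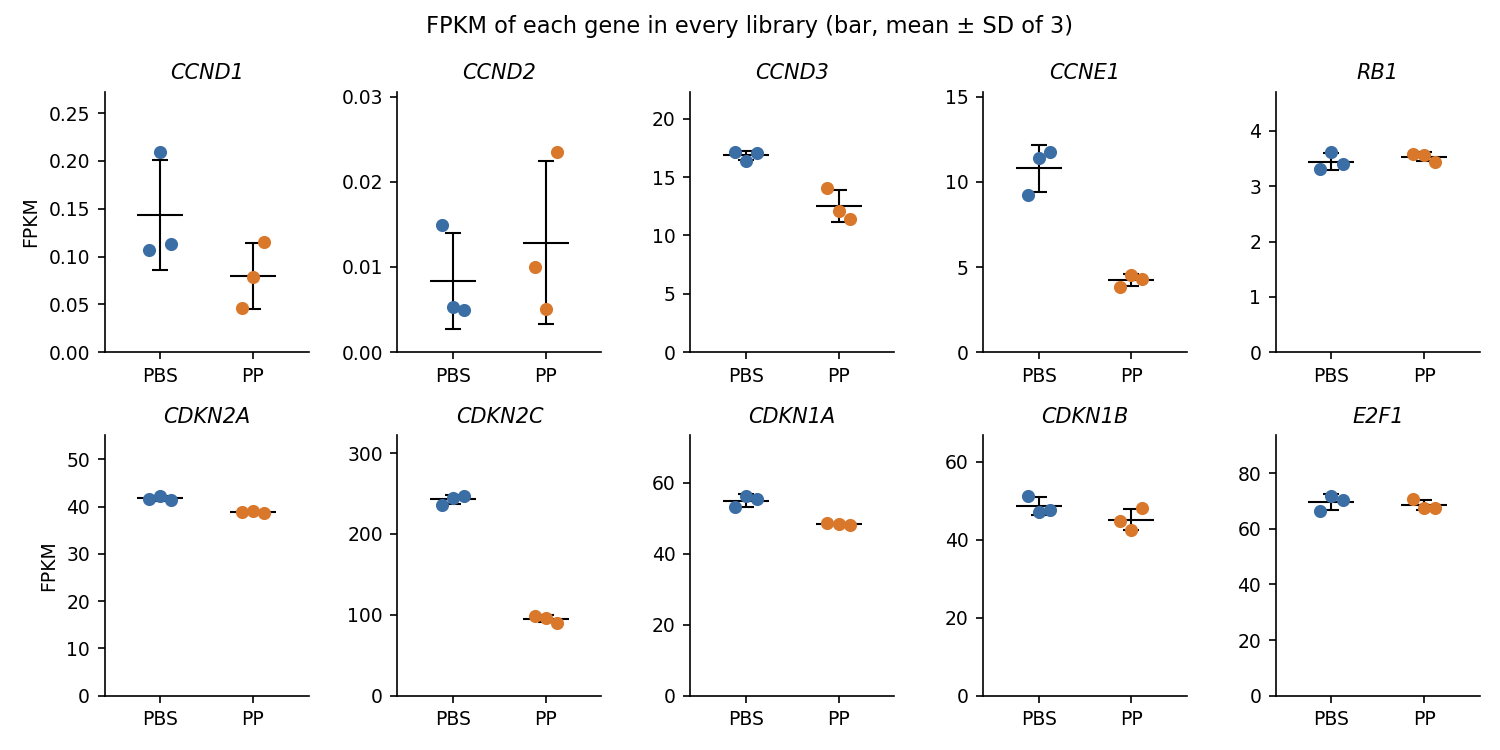
FPKM of the 10 G1 genes in PBS and PP, a panel per gene with its own linear axis from 0, points for the libraries and bars for the mean ± SD (n = 3). *CDKN2C* (243 to 94.9 FPKM) and *CCNE1* (10.8 to 4.22 FPKM) show the widest gaps between the groups, and the points of *CDKN1B*, *RB1*, *E2F1*, *CCND1* and *CCND2* overlap.

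The promoters of the members with the largest falls, and of *E2F1* itself, were read because E2F factors act at such sites. Windows of the 250 bases before a start site were taken from the RefSeq promoter table (GRCh38.p14). They covered 8 of the 10 members, all but *CCND1* and *CCND2*, in 13 windows. Only the windows of *CDKN2C*, *CCNE1* and *E2F1* were placed in GRCh37, each by a unique exact match. The letters TTCCCGC or TTGGCGC or TTCGCGC or TTGCCGC, searched on both strands, occurred in 10.9% of all 35116 windows and in 16.6% of the windows of tested genes. They occurred for 2 members, in 1 of the 3 windows of *CDKN2C* and in the single window of *E2F1*. These 2 of the 13 member windows are a share near that of the windows of tested genes, so no excess among the members was seen. Each of the 2 windows held 2 matches, and 2.28% of the windows of tested genes held 2 or more. That threshold equals the count found here, so its share does not measure an enrichment. For *CDKN2C* the window of chr1:51434128-51434377 overlaps an annotated exon of *CDKN2C* itself and an exon of the antisense lncRNA ENSG00000290102. Only the matched sites are therefore printed, at chr1:51434236-51434264 and chr1:51434333-51434361 of GRCh37, both on the plus strand. Capitals mark the matches, which begin 131 and 34 bases before the start site, the more distant on the minus strand.
CDKN2C distal site: gagagcgggagGCGGGAAtgagggcgcgg
CDKN2C proximal site: ggcgcccggccTTCCCGCtcccgcggcgc
The *E2F1* window is at chr20:32274192-32274441 on the minus strand, with TTGCCGC on the opposite strand 33 bases and TTGGCGC 19 bases before the start site, in capitals.
E2F1: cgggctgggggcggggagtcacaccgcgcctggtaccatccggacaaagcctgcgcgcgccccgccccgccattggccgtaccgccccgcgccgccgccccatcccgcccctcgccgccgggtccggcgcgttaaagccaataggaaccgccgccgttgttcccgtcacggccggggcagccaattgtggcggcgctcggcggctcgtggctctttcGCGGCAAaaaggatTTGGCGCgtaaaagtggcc
The *CCNE1* window, at chr19:30302648-30302897 on the plus strand, held none of these letters, which says nothing of sites elsewhere at the gene.
CCNE1: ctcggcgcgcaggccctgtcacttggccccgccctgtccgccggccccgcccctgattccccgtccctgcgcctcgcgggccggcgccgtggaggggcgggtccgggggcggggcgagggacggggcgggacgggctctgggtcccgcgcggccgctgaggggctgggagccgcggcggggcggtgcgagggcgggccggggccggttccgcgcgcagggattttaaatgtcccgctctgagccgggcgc
Of these 3 genes, *CDKN2C* and *CCNE1* fell under PP to the same share of their PBS level, and *E2F1* did not pass the test.

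*CCND3* (ENSG00000112576, chr6:41902672-42018095, minus strand, GRCh37 as for all loci below) encodes cyclin D3, a partner of CDK4 and CDK6. Its FPKM was 17.1, 16.4 and 17.0 in PBS and 14.1, 12.1 and 11.4 in PP. Every PP library was below every PBS library, and the PP libraries were spread more widely. The means were 16.9 ± 0.392 and 12.5 ± 1.39 (SD, n = 3), with a log2 fold change of -0.41 (SE 0.07, 95% confidence interval -0.56 to -0.26, adjusted p = 0.000324).

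The other D-type cyclins were near the limit of detection and were not tested. *CCND1* (ENSG00000110092, chr11:69455924-69469242, plus strand) had 14, 26 and 15 counts in PBS and 6, 10 and 16 in PP, or 0.107, 0.209 and 0.113 FPKM against 0.0461, 0.0781 and 0.115. The groups overlapped through the third PP library. *LTO1*, a protein-coding gene on the opposite strand, shares 497 of the 4761 exon bases of *CCND1*, so some of these few counts may belong to it. The sums of 55 and 32 counts gave a PP to PBS ratio per total of 0.569 (95% interval 0.356 to 0.895, counting error only), and with a lower limit of 0.1 FPKM limma gave an adjusted p of 0.294. *CCND2* (ENSG00000118971, chr12:4378937-4414519, plus strand) had 3, 1 and 1 counts in PBS and 2, 1 and 5 in PP, with a ratio per total of 1.56 (0.451 to 6.07), so no difference was detectable at this depth. The protein-coding gene ENSG00000285901, on the same strand, shares 999 of the 7988 exon bases of *CCND2*. Cyclin D3 thus made up nearly all of the D-type cyclin RNA: *CCND3* took 99.1% ± 0.342 of the summed FPKM in PBS and 99.2% ± 0.407 in PP (SD, n = 3), a share so near its ceiling in every library that it could hardly move. The sum itself was 17.0 ± 0.338 FPKM in PBS and 12.6 ± 1.35 in PP.

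*CCNE1* (ENSG00000105173, chr19:30302898-30315219, plus strand) encodes cyclin E1, which activates CDK2 late in G1. Its FPKM was 9.24, 11.4 and 11.8 in PBS and 3.83, 4.54 and 4.28 in PP. Every PBS library lay far above every PP library, and the first PBS library was the lowest of its group. The means of 10.8 ± 1.36 and 4.22 ± 0.357 differed 2.56-fold, with a log2 fold change of -1.17 (SE 0.09, interval -1.36 to -0.98, adjusted p = 8.66e-07), on 559 to 718 counts per PBS library and 230 to 274 per PP library. In PBS, 50.1% of all tested genes had a lower mean than *CCNE1*, and in PP 22.3%. Its relative *CCNE2* (cyclin E2) also fell, from 61.7 ± 1.79 to 43.8 ± 0.246 FPKM (log2 fold change -0.49, adjusted p = 7.57e-07), and was the more abundant of the pair in every library. *CCNE1* took 12.7%, 15.7% and 16.3% of the summed E-type cyclin FPKM in PBS and 8.10%, 9.37% and 8.87% in PP, lower in each PP library (two-sided exact permutation p = 0.1, the smallest that 3 against 3 allows).

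**Figure D2:**
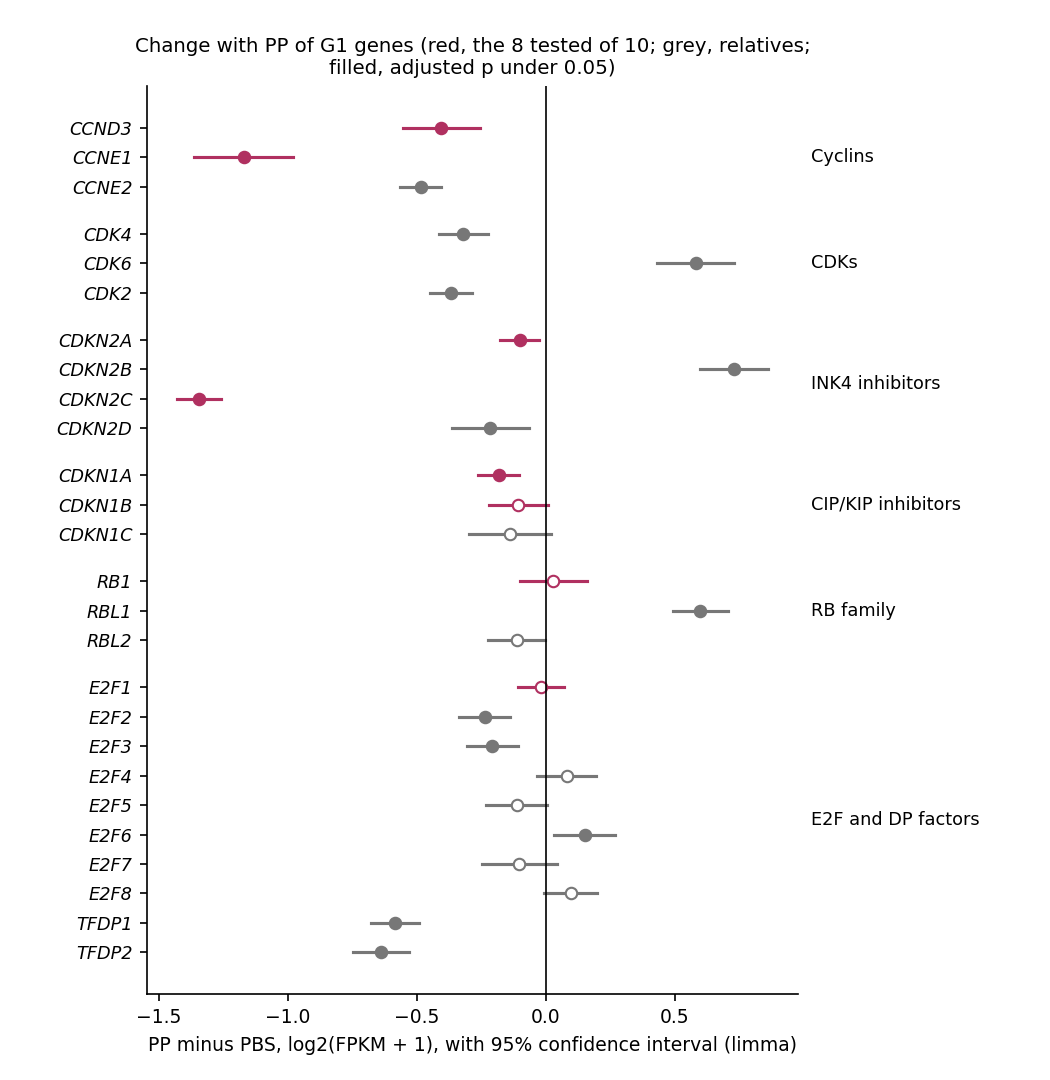
Log2 fold change of PP against PBS on the log2(FPKM + 1) scale with 95% confidence intervals for the 8 tested members (red) and their relatives (grey), with filled points at an adjusted p under 0.05 (3 libraries a group). *CDKN2C* at -1.35 and *CCNE1* at -1.17 lie farthest to the left, and the intervals of *CDKN1B*, *RB1* and *E2F1* include 0.

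*CDKN2C* (ENSG00000123080, chr1:51426417-51440306, plus strand) encodes the INK4 inhibitor p18. It was the most abundant member in both groups. Its FPKM was 236, 245 and 247 in PBS and 98.5, 96.2 and 90.2 in PP, so that the groups were far apart and each was tight. The means were 243 ± 5.91 and 94.9 ± 4.26, 2.56-fold lower in PP, with a log2 fold change of -1.35 (SE 0.04, interval -1.43 to -1.26, adjusted p = 1.03e-09). On this log2(FPKM + 1) scale only 1.25% of all tested genes had a lower log2 fold change, as against 1.98% for *CCNE1*, 16.3% for *CCND3* and 31.1% for *CDKN1A*. The scale understates the change of genes with low FPKM, and with limma-voom on recovered counts *CDKN2C* and *CCNE1* were at -1.36 and -1.35. *CDKN2C* remained high in PP, where its mean exceeded that of 95.4% of tested genes (98.7% in PBS). An antisense lncRNA (ENSG00000290102) shares 617 of its 3018 exon bases, and since no source says whether the counting used strand, reads of the 2 genes may not be told apart there.

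*CDKN2A* (ENSG00000147889, chr9:21967751-21995300, minus strand) encodes the INK4 inhibitor p16 and, from another first exon, the p53 pathway protein ARF, and the table gives both as a single value. Its FPKM was 41.5, 42.3 and 41.4 in PBS and 38.8, 39.1 and 38.6 in PP. The groups did not overlap, but the gap was small beside those of *CDKN2C* and *CCNE1*. The log2 fold change was -0.10 (SE 0.03, interval -0.18 to -0.03, adjusted p = 0.0193), and without the second PBS library the adjusted p was 0.0769 at -0.09. *CDKN2B-AS1*, on the opposite strand, shares 593 of its 3885 exon bases.

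The INK4 family changed in make-up as well as in amount. The sum over its 4 genes fell from 320 ± 7.73 to 169 ± 6.25 FPKM, a ratio of 0.526. *CDKN2C* took 75.8% ± 0.0368 of the sum in PBS and 56.3% ± 0.996 in PP, and *CDKN2A* took 13.0% ± 0.321 and 23.0% ± 0.808. *CDKN2B*, encoding p15, rose 1.81-fold from 4.28 ± 0.302 to 7.75 ± 0.287 FPKM (log2 fold change 0.73, adjusted p = 1.88e-06), and its share went from 1.34% to 4.60%. *CDKN2D*, encoding p19, fell from 31.5 ± 1.85 to 27.1 ± 2.60 FPKM with libraries that overlapped (log2 fold change -0.22, adjusted p = 0.0141), while its share went from 9.84% to 16.0%. Each of these 4 shares had non-overlapping groups (exact permutation p = 0.1 each). The 4 results are not independent, because a smaller *CDKN2C* share leaves larger shares for the others. The shares of *CDKN2A* and *CDKN2D* rose although their FPKM fell. Thus the 4 inhibitors of CDK4 and CDK6 did not move as one, since *CDKN2C* fell and *CDKN2B* rose.

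**Figure D3:**
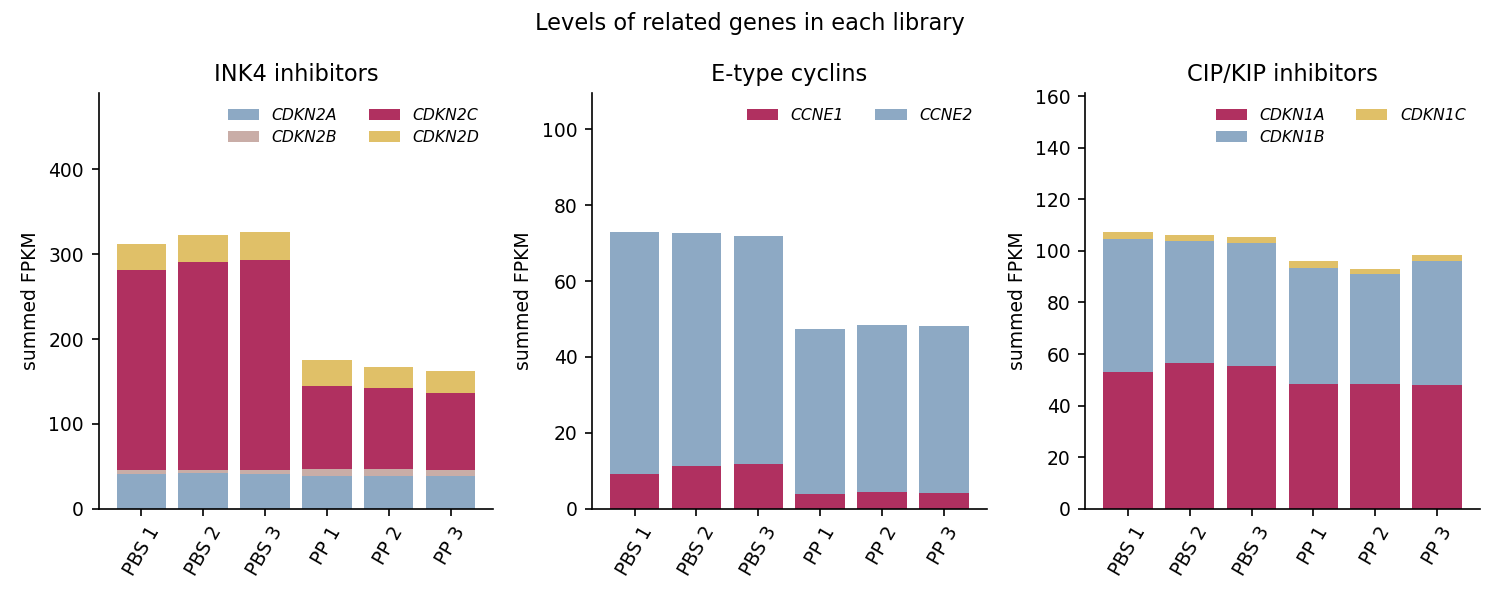
Stacked FPKM of the INK4 inhibitors, E-type cyclins and CIP/KIP inhibitors in each of the 6 libraries, a colour per gene and a linear axis from 0 in each panel. The INK4 bars shrink from a mean of 320 to 169 FPKM, mostly in the *CDKN2C* segment, and the CIP/KIP bars change least, from 106 to 95.8.

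*CDKN1A* (ENSG00000124762, chr6:36644237-36655114, plus strand) encodes p21, the CIP/KIP inhibitor that p53 switches on. Its FPKM was 53.1, 56.4 and 55.5 in PBS and 48.6, 48.3 and 48.0 in PP. All PP libraries were lower and close together. The means were 55.0 ± 1.73 and 48.3 ± 0.305, with a log2 fold change of -0.18 (SE 0.04, interval -0.26 to -0.10, adjusted p = 0.00099). The lncRNA *DINOL*, on the opposite strand, shares 146 of the 2996 exon bases of *CDKN1A*.

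*CDKN1B* (ENSG00000111276, chr12:12838432-12875303, plus strand) encodes p27, whose amount is controlled largely through protein turnover. Its FPKM was 51.4, 47.2 and 47.7 in PBS and 45.0, 42.6 and 48.1 in PP. The third PP library lay above the 2 lower PBS libraries. The log2 fold change was -0.11 (interval -0.22 to 0.0063, adjusted p = 0.0815). It was -0.066 without the second PP library and -0.070 without the first PBS library, and it passed the test without the third PP library (-0.15, adjusted p = 0.0196) and with limma-voom (-0.11, adjusted p = 0.0479). The third CIP/KIP gene, *CDKN1C* (p57), was low in both groups at 2.64 ± 0.253 and 2.31 ± 0.118 FPKM and was not called (-0.14, adjusted p = 0.104). The CIP/KIP sum was 106 ± 0.891 FPKM in PBS and 95.8 ± 2.64 in PP, and *CDKN1A* held 51.7% ± 1.96 and 50.4% ± 1.57 of it (exact permutation p = 0.5).

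*RB1* (ENSG00000139687, chr13:48877880-49173572, plus strand) encodes the RB protein, the substrate of the G1 kinases. Its FPKM was 3.31, 3.62 and 3.41 in PBS and 3.59, 3.57 and 3.44 in PP, on 490 to 538 counts per library. The groups overlapped throughout. The log2 fold change was 0.029 (interval -0.10 to 0.16, adjusted p = 0.675), and it ranged from 0.0065 to 0.056 with 1 library left out. *RB1* was the lowest of the 8 tested members, with 17.8% of tested genes below it in PBS and 18.4% in PP.

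*E2F1* (ENSG00000101412, chr20:32263283-32274191, minus strand) encodes an activating E2F factor that RB binds. Its FPKM was 66.4, 72.0 and 70.2 in PBS and 70.8, 67.5 and 67.4 in PP, and the groups overlapped. The log2 fold change was -0.019 (interval -0.11 to 0.070, adjusted p = 0.681), and its sign turned without the second PBS library, at 0.0055 (adjusted p = 0.923). *E2F1* was the second most abundant member, above 92.8% of tested genes in PBS and 93.1% in PP.

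The order of levels per length was the same in both groups: *CDKN2C*, *E2F1*, *CDKN1A*, *CDKN1B*, *CDKN2A*, *CCND3*, *CCNE1*, *RB1*, *CCND1* and *CCND2*. Libraries of neighbours in this order overlapped only for *CDKN1A* and *CDKN1B* in PP. The step from *CDKN2C* to *E2F1* was 3.49-fold in PBS and 1.38-fold in PP, and that from *CCNE1* to *RB1* 3.13-fold and 1.19-fold. The genes whose pattern over the 6 libraries lay nearest to *CDKN2C*, by Euclidean distance of log2(FPKM + 1) values after subtracting the PBS mean, were *CCDC187* (0.0475), *SDC1* (0.0804) and *CAPN5* (0.0917). Those nearest to *RB1* were *ABL1* (0.0299), *POLDIP3* (0.0452) and *TCOF1* (0.0456).

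The kinases that these cyclins and inhibitors bind, and the CDK-activating kinase, were measured beside them. *CDK4* fell from 116 ± 3.63 to 92.3 ± 4.74 FPKM (log2 fold change -0.32, adjusted p = 7.04e-05) and *CDK2* from 97.8 ± 2.06 to 75.5 ± 2.61 (-0.37, adjusted p = 7.58e-06). *CDK6* rose 2.12-fold from a low level, 0.789 ± 0.0382 to 1.68 ± 0.0375 FPKM (0.58, adjusted p = 2.39e-05), and *CDK4* remained 98.2% of the *CDK4* and *CDK6* sum in PP. All 3 genes of the CDK-activating kinase, which phosphorylates the other CDKs, rose: *CDK7* by a log2 fold change of 0.45, *CCNH* by 0.60 and *MNAT1* by 0.43. Of these 6 genes, 4 rose (66.7%, beside 38.1% of all tested genes) and 2 fell (33.3%, beside 34.4%).

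Among the relatives of *RB1* and *E2F1*, 2 of 11 tested genes rose (18.2%), 4 fell (36.4%) and 5 did not pass the test, beside 38.1% higher and 34.4% lower over all tested genes. The count that fell depended on the processing, with 6 under median-ratio scaling and 5 with limma-voom, while 2 rose in both. *RBL1*, encoding the RB relative p107, rose from 8.83, 9.33 and 8.84 FPKM in PBS to 13.9, 13.8 and 14.7 in PP (log2 fold change 0.60, adjusted p = 1.56e-06), and *RBL2*, encoding p130, was 16.7 ± 0.462 and 15.3 ± 0.882 (-0.11, adjusted p = 0.0625). The DP factors, which pair with E2F factors on DNA, fell: *TFDP1* from 96.4 ± 4.91 to 63.8 ± 1.59 FPKM (-0.59, adjusted p = 6.82e-07) and *TFDP2* from 21.2 ± 0.783 to 13.3 ± 0.618 (-0.64, adjusted p = 1.06e-06). *E2F2* and *E2F3*, the other activating E2F genes, fell by smaller amounts (-0.24 and -0.21), and *E2F6*, a repressor, rose (0.15, adjusted p = 0.0278). *E2F4* (0.08), *E2F5* (-0.11), *E2F7* (-0.10) and *E2F8* (0.10) were not called.

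The genes downstream of E2F did not move in one direction. Of 26 E2F target genes of S phase entry, 6 rose (23.1%, beside 38.1% of all tested genes), 13 fell (50%, beside 34.4%) and 7 did not pass the test, with a median log2 fold change of -0.093. *RRM2*, a subunit of ribonucleotide reductase, fell from 69.7 ± 1.27 to 39.4 ± 1.57 FPKM (-0.81, adjusted p = 4.01e-08) and *UHRF1* from 32.0 to 18.2 (-0.78), whereas the replication licensing genes *CDC6* (22.4 ± 1.63 to 38.3 ± 1.55, log2 fold change 0.75) and *CDT1* (30.7 to 40.7, 0.39) rose. Of 11 genes of G2 and mitosis, 10 fell (90.9%), with a median of -0.44. *MKI67*, a proliferation marker, went from 44.6 ± 0.862 to 28.9 ± 0.565 FPKM (-0.61) and *CCNB1* from 59.9 to 40.1 (-0.57). The exception was *CDK1*, at 73.8 and 69.5 FPKM (-0.08, adjusted p = 0.258), and the smallest of the 10 falls was that of *BUB1*, from 55.9 to 44.9 FPKM (-0.31). Of the 7 genes of the MuvB core, *MYBL2* and *FOXM1*, which serve cell cycle promoters, 3 rose (42.9%) and 4 fell (57.1%). *LIN37* went from 29.0 to 57.8 FPKM (0.97), *LIN54* rose by 0.33, *LIN52* went from 3.27 to 1.61 (-0.71) and *FOXM1* from 39.8 to 27.9 (-0.50).

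Of 10 genes of G1 protein turnover and *CDC25A*, which act on the G1 proteins after translation, 4 rose (40%), 3 fell (30%) and 3 were not called, shares near the 38.1% and 34.4% of all tested genes. *SKP2*, the ubiquitin ligase subunit that directs p27 to degradation, fell from 17.3 ± 0.394 to 12.2 ± 1.19 FPKM (-0.48, adjusted p = 5.98e-05) and *SKP1* from 30.1 to 21.2 (-0.49), while *FBXO4* (0.706 to 1.82, log2 fold change 0.73) and *FBXO31* (2.83 to 5.12, 0.68) rose. Of 16 p53 target genes, 14 were tested, of which 6 rose (42.9%), 5 fell (35.7%) and 3 were not called, again near the shares of all tested genes. *TNFRSF10B*, a death receptor gene, rose from 8.64 ± 0.771 to 25.6 ± 1.42 FPKM (1.46, adjusted p = 1.80e-08) and *BBC3* from 2.63 to 7.02 (1.14), whereas *BTG2* (18.8 to 13.6, log2 fold change -0.44) and *BAX* (34.5 to 25.8, -0.42) fell, as did *CDKN1A* itself.

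The 6 libraries held 29064253 to 32481171 counts, recovered from the steps of the FPKM values, and libraries of a group differed far less than libraries of different groups (chi-square per degree of freedom 3.36 to 6.91 against 144 to 164). The neuroendocrine markers of the label were present, all 8 above 1 FPKM. Of these 8 markers 2 rose (25%, beside 38.1% of all tested genes) and 5 fell (62.5%, beside 34.4%), with *SCG2* and *INSM1* at the upper end and *CHGA* (log2 fold change -0.78) among those that fell. Summed levels of other cell types were low: 0.821 to 1.40 FPKM in PBS and 0.399 to 0.788 in PP for 4 luminal prostate markers, 4.08 to 4.49 and 4.49 to 4.91 for 5 fibroblast markers, 4.30 to 4.76 and 2.96 to 3.38 for 4 endothelial markers, and 2.75 to 3.09 and 2.15 to 2.94 for 5 leukocyte markers. The part of these levels in the changes of the G1 genes was not tested.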

How the data were processed

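RNA of NCI-H660 cells was sequenced as 150 bp paired-end reads from stranded mRNA libraries. The authors deposited 1 table of FPKM values for 3 PBS and 3 PP libraries. The study's methods name Bowtie, hg19, RSEM, Cufflinks and HTSeq, whereas the submitters' processing notes name fastp, HISAT2, HTSeq and GRCh38. Which made the table, and whether counting used strand, is not given in the sources used here, and overlapping antisense genes are uncertain for this reason. FPKM values were whole multiples of 1 count for all 17177 genes (tolerance 0.01 of a count), which gave counts and depth.

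log2(FPKM + 1) was fitted with limma 3.58.1 (R 4.3.3, trended empirical Bayes) on genes with a mean of at least 1 FPKM, with Benjamini-Hochberg adjustment over 11726 genes. This log2 scale understates the change of low genes. Shares and ratios within a library were compared by two-sided exact permutation tests. Intervals on counts cover counting error only. The labels give 3 libraries a group, the study's methods give 2 duplicates a group and its figure legends give 3 independent samples. The study's reporting summary gives at least 3 biologically independent experiments for in vitro work unless otherwise stated. The library labels do not say whether these were separate cultures. The p-values measure the spread between these libraries, which may be technical. The libraries of a group differed by more than sampling noise.

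The members and gene lists were chosen with earlier results of these data known. All 10 members, the kinases, inhibitors and RB and E2F relatives were named, and from each further list the 2 genes with the highest and the 2 with the lowest log2 fold change. A result that this rule would name among the neuroendocrine markers is not reported here. Family shares other than those of the D-type cyclins, and ratios, were chosen after values were seen. Loci are from GENCODE v44 on GRCh37. Alternatives were another pseudocount (0.1), a minimum of 0.1 or 5 FPKM or none, no trend, median-ratio scaling, a replicate block, limma-voom on recovered counts, and leaving out each library.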

Additional observations from a re-analysis of the deposited data

How the results depend on the processing

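The falls of CCND3, CCNE1, CDKN1A and CDKN2C were called under each of the 14 alternatives, and CCNE1 and CDKN2C stayed past the cutoff in each. Leaving out 1 library at a time gave 4 to 6 members lower and 0 higher. Over all alternatives the log2 fold change was -0.49 to -0.35 for CCND3, -1.35 to -1.11 for CCNE1, -0.21 to -0.17 for CDKN1A and -1.37 to -1.31 for CDKN2C. CDKN2A lost its call with the replicate block (-0.10, adjusted p = 0.0616) and without PBS replicate 2 (-0.09, adjusted p = 0.0769), in a range of 0.0067 to 0.0769. CDKN1B gained a call without PP replicate 3 (-0.15, adjusted p = 0.0196) and with limma-voom (-0.11, adjusted p = 0.0479), in a range of 0.0196 to 0.290. E2F1 changed sign without PBS replicate 2, at 0.0055 (adjusted p = 0.923), and ranged from -0.052 to 0.0055 with 1 library left out. The cause was not tested for these 3 genes.

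The labels do not say whether the replicate numbers pair the libraries. Same-numbered libraries had correlations of -0.211, -0.0140 and -0.127 between their deviations from the group means, so no shared deviation was seen. With 3 libraries a group, these correlations cannot decide whether the libraries were paired. With the replicate block 4260 genes were higher and 3878 lower over all genes tested, and without it 4464 and 4032. Over all alternatives 3529 to 4736 genes were higher and 3031 to 4458 lower. Depth limited CCND2, at 1 to 5 counts per library. The counting interval of the CCND1 ratio excluded 1, but its libraries overlapped.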

Other observations

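Ratios within each library, chosen after their values were seen, were computed for 7 pairs, of which 5 were between members and the others set a member or the INK4 sum against relatives. The INK4 sum was 2.76, 2.78 and 2.72 times the sum of CDK4 and CDK6 in PBS and 1.78, 1.77 and 1.83 times in PP. The summed INK4 RNA thus dropped by more than the kinase RNA, but CDKN2C held 75.8% of that sum in PBS. The other INK4 genes did not drop by more than the kinases. CDKN2A was at 93.0% and CDKN2D at 85.8% of the PBS level, and CDKN2B rose, beside a PP to PBS ratio of 0.808 for the CDK4 and CDK6 sum. CDKN2C was 5.69, 5.78 and 5.98 times CDKN2A in PBS and 2.54, 2.46 and 2.34 times in PP. The ratio of CCNE1 to CCND3 was 0.641 ± 0.0885 in PBS and 0.341 ± 0.0595 in PP, and that of CCNE1 to CDKN1B 0.222 ± 0.0370 and 0.0936 ± 0.0114. E2F1 was 20.2 ± 0.371 times RB1 in PBS and 19.4 ± 0.458 times in PP (SD, n = 3), a gap much smaller than the others. All 7 ratios had groups that did not overlap, with an exact permutation p of 0.1 each (adjusted p = 0.1), the smallest that 3 against 3 libraries can give.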
